A study of Mus musculus with 9 samples.

Results

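Mitochondrial ribosomal protein genes encode the proteins of the ribosome inside mitochondria, the mitoribosome, and are themselves transcribed in the nucleus. Their products are made in the cytosol, imported, and assembled with ribosomal RNAs transcribed from mitochondrial DNA into a large and a small subunit. The finished particle translates the few mRNAs of the mitochondrial genome, which code for core subunits of oxidative phosphorylation, the respiratory chain and ATP synthase, so blood progenitors depend on it when they divide and mature. Genes were taken by name: a symbol starting with Mrpl or Mrps and a digit, without the pseudogene ending "-ps". Of 55274 gene identifiers in the tables, 78 met this rule, and 5 further names were left out for the pseudogene ending. All 78 genes stood at an FPKM of 1 or more in all 9 libraries, so all 78 passed the filter on low values (at least 1 in 3 or more libraries) and are among the 13493 genes tested. The large subunit holds 51 of them and the small subunit 26, while Mrps36 encodes a subunit of the 2-oxoglutarate dehydrogenase complex in spite of its name. Mrps18a and Mrps30, also in spite of their names, encode large-subunit proteins. By the unified names of ribosomal proteins, 46 are classed as shared with bacteria and 31 as mitochondria-specific, a class that here includes Mrps18a and Mrps18b. These are classes by name, not by descent.

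The cells were bone marrow cells of C57BL/6J mice, harvested 4 days after 5-fluorouracil at 150 mg/kg and kept for 48 h with human IL-6 (10 ng/mL), mouse IL-3 (6 ng/mL), mouse SCF (20 ng/mL) and 15% serum. MSCV retroviral vectors then delivered NRASG12D (marked with BFP), the fusion gene NUP98-NSD1 (marked with GFP), or both, and the marked cells were sorted and expanded in culture. Each of the 3 groups has 3 RNA-seq libraries with 50 bp reads, there is no group with empty vectors, and the NRASG12D cells are described as mostly IgE receptor-positive mast cells. Nothing says that the 3 libraries of a group came from separate cultures or animals, so p-values may measure technical spread. Levels are given in FPKM, fragments per kilobase of transcript per 1e6 mapped fragments, and can be compared between genes because they are per length. Estimated from the steps between low values, the NRASG12D libraries (replicates 1, 2 and 3) held 25100000, 37000000 and 23500000 fragments. Estimates for the NUP98-NSD1 libraries were 30800000, 27600000 and 25100000 fragments, and those for the NUP98-NSD1+NRASG12D libraries were 29500000, 25500000 and 23900000 fragments. The lowest level of any member was 3.61 FPKM, for Mrps31 in NRASG12D replicate 3.

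Nras itself read 354, 479 and 348 FPKM in the NRASG12D libraries, 50.3, 47.7 and 51.2 FPKM in the NUP98-NSD1 libraries and 245, 262 and 701 FPKM in those with both, so the libraries labelled with NRASG12D were the high ones. Marker genes of blood cell types separated the groups. The 11 mast cell markers summed to 36207, 38347 and 37512 FPKM in the NRASG12D libraries, 29118, 29232 and 35349 in the NUP98-NSD1 libraries and 1026, 4724 and 785 in the NUP98-NSD1+NRASG12D libraries. The most abundant was Cma1 with NRASG12D and Cpa3 in the other groups. Cpa3 is listed at 0 in all 3 NRASG12D libraries and no fold is given for it. The other 10, counted apart after the data were seen, summed to 36207, 38347 and 37512 FPKM with NRASG12D, 15705, 16668 and 20970.2 with NUP98-NSD1 and 674, 2903 and 505 with both. For the 5 markers of granulocyte-monocyte progenitors, led by Ctsg with NRASG12D and by Mpo in the other groups, the sums were 30.4, 34.9 and 29.2 FPKM with NRASG12D, 5492, 5577 and 1294 with NUP98-NSD1 and 13132, 3916 and 4296 with both. Of the 10 mast cell markers without Cpa3, limma called 2 higher and 5 lower in NUP98-NSD1 cells, and 1 higher and 9 lower in cells with both genes, than in NRASG12D cells. The 7 neutrophil markers, led by Mmp8 with NRASG12D and by S100a8 in the other groups, summed to 0.478, 8.10 and 0.753 FPKM with NRASG12D, 1114, 626 and 650.1 with NUP98-NSD1 and 2821, 5759.7 and 16179 with both, and Ltf, Camp and Retnlg were at 0 in all 3 NRASG12D libraries. The 7 macrophage markers, led by Lyz2, summed to 72.5, 124 and 43.6 FPKM with NRASG12D, 1709, 1234 and 1475 with NUP98-NSD1 and 3655, 10709.7 and 10308 with both. Basophil markers (4 genes, led by Cd200r3 with NRASG12D, Mcpt8 with NUP98-NSD1 and Ccl3 with both) summed to 407, 449 and 406 FPKM with NRASG12D, 929, 1675 and 982 with NUP98-NSD1 and 421, 655 and 452 with both. NUP98-NSD1+NRASG12D replicate 2 stood apart in the 5 megakaryocyte markers, led by Itga2b in the other groups and by Pf4 in this library, with sums of 81.1, 1242 and 127 FPKM against 479, 563 and 494 with NRASG12D and 244, 242 and 301 with NUP98-NSD1. The 6 erythroid markers, led by Hbb-bt, summed to 2.87, 6.65 and 3.48 FPKM with NRASG12D, 72.7, 108 and 45.7 with NUP98-NSD1 and 31.7, 66.9 and 6.08 with both. T cell markers were near absent: 6 genes reached at most 0.350 FPKM in sum, and Cd3e and Cd8a were at 0 in the 3 libraries with both. The 5 B cell markers, led by Cd79b in the groups with NUP98-NSD1, reached at most 9.19 FPKM in sum. The 5 stromal markers, led by Pdgfrb in the same groups, reached at most 4.50 FPKM, and Col3a1 was at 0 in the 3 libraries with both. Mast cell, basophil, progenitor, neutrophil, macrophage, megakaryocyte and erythroid markers therefore differed between groups, and their part in the differences between mitochondrial ribosomal protein genes was not tested. In bulk samples fewer cells of a type and less RNA per cell cannot be told apart.

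Summed over the 78 genes, mitochondrial ribosomal protein mRNA stood at 3559.6, 3486 and 2972 FPKM in the NRASG12D libraries. The sums were 5527, 5649.5 and 4579.7 FPKM in the NUP98-NSD1 libraries and 7399.9, 4249 and 5499 FPKM in the NUP98-NSD1+NRASG12D libraries. All 6 libraries with NUP98-NSD1 lay above all 3 without it, and the libraries with both genes spread most. As mean ± SD (n = 3) the sums were 3339 ± 320.2 FPKM with NRASG12D, 5252 ± 586 FPKM with NUP98-NSD1 and 5716 ± 1587 FPKM with both, or 0.604%, 0.845% and 0.869% of all FPKM. Large-subunit genes summed to 2392, 2330.3 and 1971 FPKM with NRASG12D, 3726, 3812 and 3103 with NUP98-NSD1 and 5011, 2859 and 3776 with both. Small-subunit genes summed to 1141, 1127 and 979 FPKM with NRASG12D, 1748, 1785 and 1444 with NUP98-NSD1 and 2317, 1344 and 1672 with both. The ratio of the large to the small sum moved little, from 2.01 to 2.26 over the 9 libraries. The genes' means over the 9 libraries had a median of 49.4 FPKM, 11 genes averaged 100 FPKM or more and 5 averaged under 20. By this mean the most abundant was Mrpl17, at 198.5 FPKM, followed by Mrps14 at 169.4 FPKM, while Mrpl33 was highest within the NRASG12D group and Mrpl42 exceeded Mrps14 within the NUP98-NSD1 group.

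**Figure D1:**
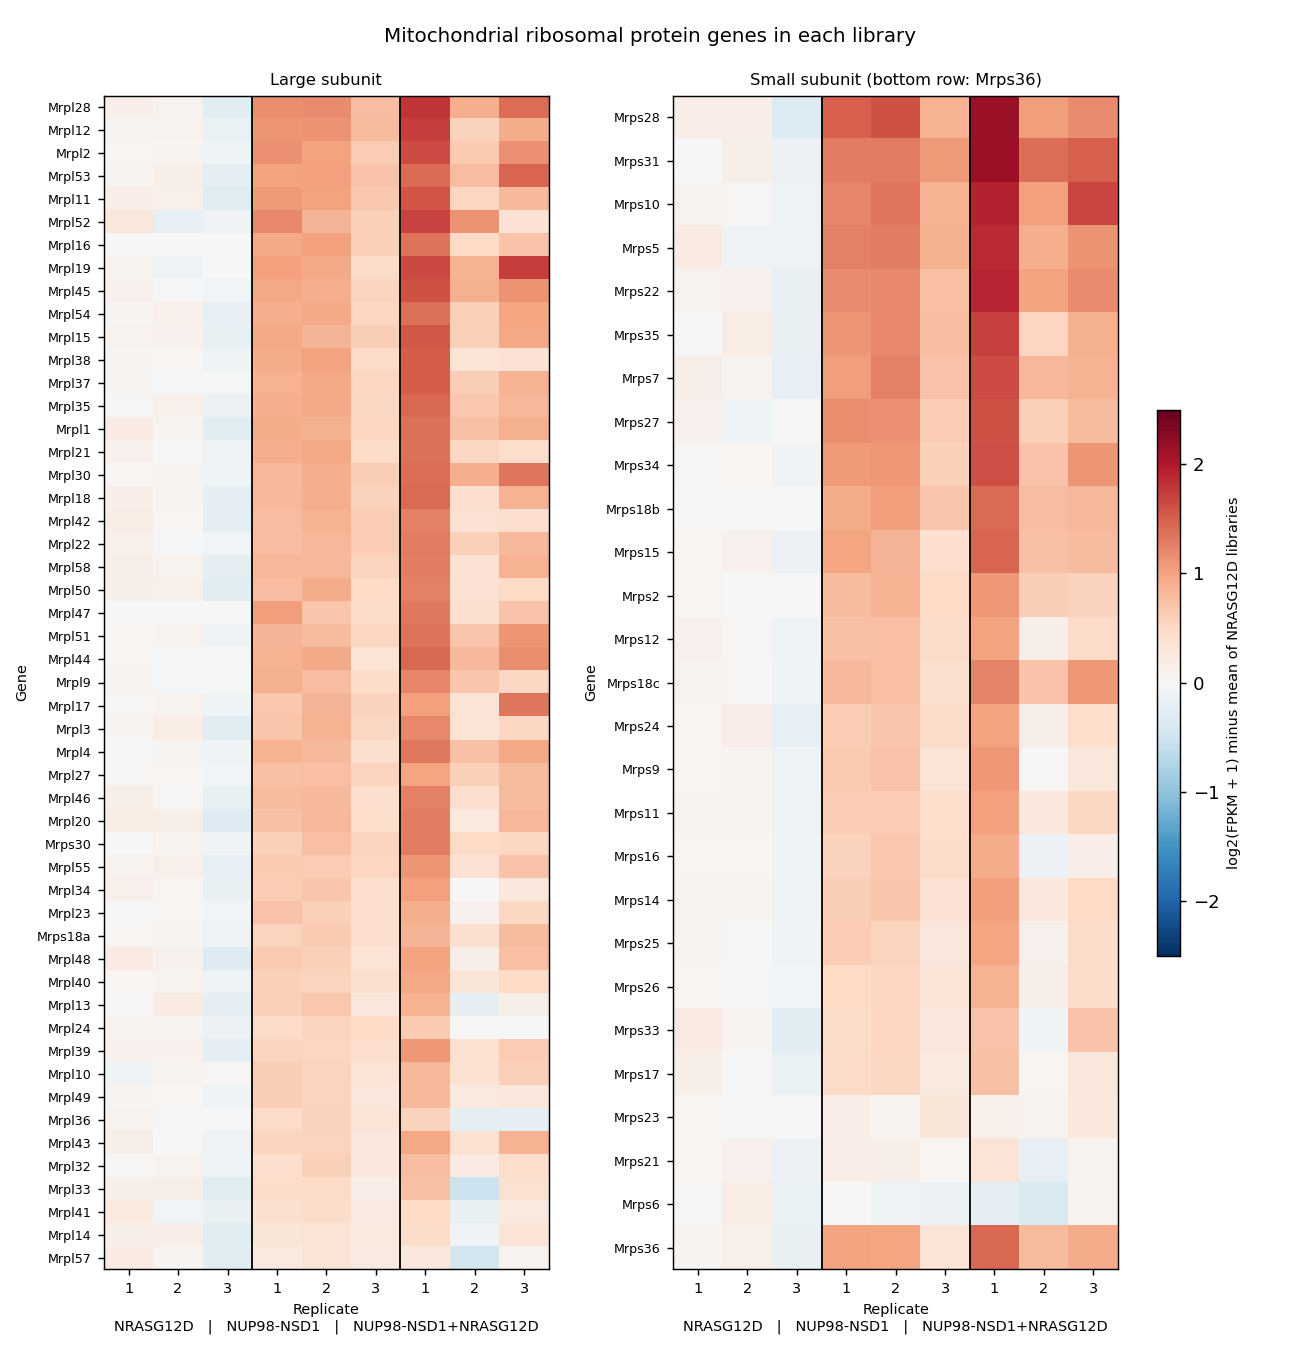
Heat map of log2(FPKM + 1) minus the mean of the 3 NRASG12D libraries for the 78 genes (rows, by subunit) in the 9 libraries (columns, by group and replicate). Most rows are red in all 6 libraries with NUP98-NSD1, palest in NUP98-NSD1+NRASG12D replicate 2 among the 3 libraries with both genes, and Mrps23, Mrps21 and Mrps6 show little color.

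The comparison of NUP98-NSD1 cells with NRASG12D cells asks how the transduced cultures differ in expression. The paper reports that NRASG12D by itself did not transform marrow cells and that such cells declined in culture. Each gene was tested with limma on log2(FPKM + 1), a scale on which a fold change understates the change of low genes, with p-values adjusted by Benjamini-Hochberg over all 13493 genes and a threshold of 0.05. Of the 78 genes, 72 were higher in NUP98-NSD1 cells and 0 lower, while over all genes tested 42.2% were higher and 9.98% lower. Fitting all 9 libraries at once gave 41 higher in place of 72, and 2604 in place of 5689 over all genes. Without adjustment, 73 of the 78 had a limma p under 0.05, against 8026 of all 13493 genes. In 75 of the 78 every NUP98-NSD1 library exceeded every NRASG12D library, against 50.7% of all genes. The members' median log2 difference was 0.70, with quartiles of 0.52 and 0.81 and a range from -0.09 (Mrps6) to 1.32 (Mrps28). Over all genes tested the median log2 difference was 0.27 here and 0.23 for NUP98-NSD1+NRASG12D against NRASG12D cells, and differences below are also given relative to it. The members' median lay 0.43 above the median of all genes, and 74 of the 78 lay above it. Large-subunit genes passed in 48 of 51 cases, with a median difference of 0.71, and small-subunit genes in 23 of 26 cases, with a median of 0.65. Genes classed as shared with bacteria were higher in 42 of 46 cases (median 0.69) and mitochondria-specific genes in 29 of 31 (median 0.72). The subunits and the classes by name were not tested against each other. The 6 genes that did not pass were Mrpl14, Mrpl33, Mrpl57, Mrps21, Mrps23 and Mrps6.

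Cells with both genes were compared with the same NRASG12D libraries, so this comparison and the one before are not independent. Of the 78 genes, limma called 46 higher in NUP98-NSD1+NRASG12D cells and 0 lower, against 24.2% higher and 14.1% lower over all genes. Unadjusted, 59 of the 78 had a p under 0.05, against 6697 of all 13493 genes. Groups did not overlap, with all libraries with both genes on the higher side, for 62 of the 78 genes, against 38.7% of all genes. The median log2 difference was 0.79, 0.56 above that of all genes, with quartiles of 0.52 and 1.04 and a range from -0.18 (Mrps6) to 1.68 (Mrps31). In this comparison 32 of 51 large-subunit genes (median 0.79) and 13 of 26 small-subunit genes (median 0.68) were higher. Genes classed as shared with bacteria passed in 26 of 46 cases (median 0.79) and mitochondria-specific genes in 19 of 31 (median 0.78). The count of 46 depended on the filter and on the libraries used. Without the filter on low values it was 16, against 1911 of 41853 genes then tested, and the calls on Mrpl1, Mrpl12, Mrpl17, Mrpl18, Mrpl47, Mrps5 and Mrps28 were among those lost. With the filter it was 23 without NRASG12D replicate 1, 24 without NRASG12D replicate 2 and 17 without NRASG12D replicate 3, which leave 2 libraries against 3. Over all genes, the 3266 called higher became 1827, 1933 and 1727 in these fits. Without NUP98-NSD1+NRASG12D replicate 1, 2 or 3 the counts were 44, 60 and 34, and those over all genes 3447, 4202 and 2613. The library that lowered the count by its presence, NUP98-NSD1+NRASG12D replicate 2, had the lowest level of its group in 73 of the 78 genes, against 40.5% of all genes. In NUP98-NSD1+NRASG12D replicate 1, 72 of the 78 were at the highest level of the group, against 52.5% of all genes.

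**Figure D2:**
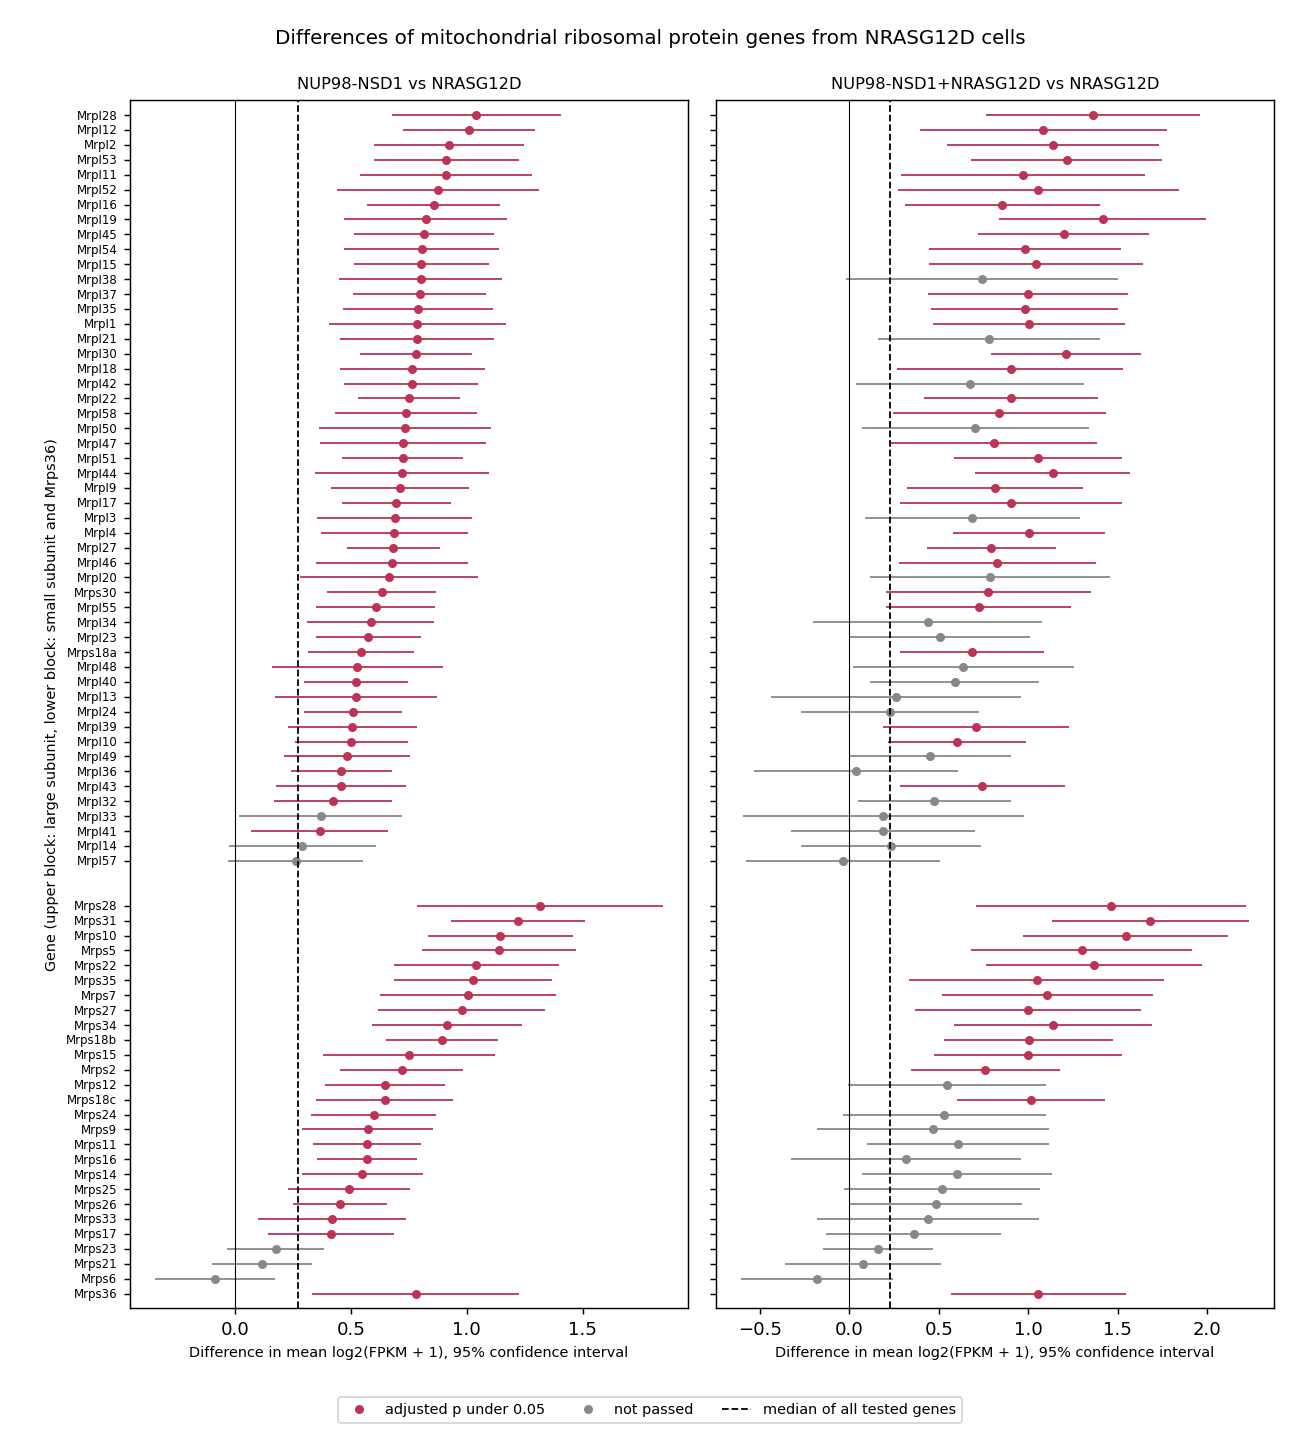
Log2 difference of log2(FPKM + 1) with its 95% confidence interval (horizontal axis) for each of the 78 genes (vertical axis), with NUP98-NSD1 cells and NUP98-NSD1+NRASG12D cells each against NRASG12D cells (n = 3 libraries a group). Red marks the 72 and 46 genes with an adjusted limma p under 0.05.

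Scaling between libraries shifted the direction of calls over all genes. Among all genes called in NUP98-NSD1 against NRASG12D cells, 80.9% were higher on the FPKM as given, 52.3% after median-ratio scaling, 43.2% after quantile normalization and 67.5% in TPM. Over all 13493 genes, the 5689 called higher became 3231, 2619 and 4372. Among the members, 72 higher and 0 lower became 57 and 1, 58 and 1, and 68 and 0, with Mrps6 the gene called lower under the first 2 scalings. Their median log2 difference was 0.41 after median-ratio scaling, 0.39 after quantile normalization and 0.55 in TPM, which is 0.39, 0.46 and 0.41 above the median of all genes. For NUP98-NSD1+NRASG12D against NRASG12D cells, 63.1% of all calls were higher as given, 53.1% after median-ratio scaling, 41.3% after quantile normalization and 47.8% in TPM. Over all genes the 3266 called higher became 2773, 2155 and 2326. Members went from 46 higher to 44, 33 and 32, with 0 lower each time and medians 0.54 above that of all genes in all 3. After median-ratio scaling the summed members stood at 3934, 3741 and 3377 in the NRASG12D libraries, 4805, 4870 and 4343 in the NUP98-NSD1 libraries and 6318, 4369 and 5587 in those with both. The NUP98-NSD1 and NRASG12D libraries still did not overlap.

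Cells with both genes were also compared with NUP98-NSD1 cells, which asks what NRASG12D adds to the fusion gene. With limma, 0 of the 78 genes were higher and 0 lower, and 0 had an unadjusted p under 0.05, against 3316 of all 13493 genes. Over all genes 2.3% were higher and 6.31% lower. The members' median log2 difference was 0.10, against -0.06 over all genes, and ranged from -0.42 (Mrpl36) to 0.59 (Mrpl19). Only Mrps31 did not overlap between these groups, with all libraries with both genes on the higher side, as did 11.6% of all genes (1564). A further 2671 of all genes, and 0 of the 78, did not overlap on the lower side. Its libraries read 21.7, 12.6 and 13.4 FPKM with both genes and 11.6, 11.6 and 9.74 FPKM with NUP98-NSD1 alone. Leaving out NUP98-NSD1+NRASG12D replicate 1 turned the members' median to -0.12 and led limma to call 2 of the 78 lower. These were Mrpl24 and Mrpl36, each encoding a large-subunit protein with a bacterial relative. The 6.31% of all genes lower belongs to the fit with all libraries, and the share in this fit is not given. For that reason these 2 calls are not read as a result about the members. Mrpl24 then differed by -0.49 (adjusted limma p 0.0321, against 0.0321 to 0.825 across all alternatives) and Mrpl36 by -0.69 (adjusted limma p 0.0225, against 0.0217 to 0.709). With all libraries Mrpl36 read 128, 72.2 and 73.5 FPKM with both genes and 121, 128 and 107 FPKM with NUP98-NSD1, while Mrpl24 read 72.9, 47.0 and 46.2 FPKM with both genes and 64.8, 68.2 and 65.0 FPKM with NUP98-NSD1. For both genes replicate 1 stood well above the other libraries with both genes. Mrpl24 shares 23.3% of its 50-base stretches with other genes, mostly Rrnad1, so its level is uncertain.

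Among large-subunit genes the most abundant by the mean over all 9 libraries, Mrpl17 (ENSMUSG00000030879.10, chr7:105803206-105811099, GRCm38), encodes a relative of bacterial L17. It read 132, 139 and 119.9 FPKM in the NRASG12D libraries, 207, 234 and 194 FPKM in the NUP98-NSD1 libraries and 266, 166 and 329.7 FPKM in the NUP98-NSD1+NRASG12D libraries. Every library with NUP98-NSD1 exceeded every NRASG12D library, and NUP98-NSD1+NRASG12D replicate 2 was the lowest of the 6. Group means ± SD (n = 3) were 130.2 ± 9.57, 212 ± 20.4 and 254 ± 82.7 FPKM. Mrpl17 rose by 0.70 ± 0.10 (SE) on the log2 scale in NUP98-NSD1 cells, 0.42 above the all-gene median (Benjamini-Hochberg adjusted limma p 0.00215). In cells with both genes it rose by 0.90 ± 0.26 (adjusted limma p 0.0331), and this call did not hold when a library was left out: adjusted limma p was 0.0968 without NRASG12D replicate 1, 0.0843 without NRASG12D replicate 2, 0.117 without NRASG12D replicate 3, 0.0690 without NUP98-NSD1+NRASG12D replicate 1 and 0.0790 without NUP98-NSD1+NRASG12D replicate 3, against 0.00323 to 0.122 across all alternatives. The call held in 4 of the 14 alternatives. Mrpl42 (ENSMUSG00000062981.5, chr10:95480805-95501940), a mitochondria-specific protein of the large subunit, read 128, 116 and 96.8 FPKM with NRASG12D, 194, 209 and 176 FPKM with NUP98-NSD1 and 270.5, 145 and 151 FPKM with both. No library with NUP98-NSD1 overlapped the NRASG12D libraries, and replicate 1 with both genes stood far above replicates 2 and 3. The increase of 0.76 in NUP98-NSD1 cells passed (adjusted limma p 0.00307), and the difference of 0.67 in cells with both genes did not (adjusted limma p 0.0868).

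Mrpl18 (ENSMUSG00000057388.9, chr17:12911349-12916345) encodes a relative of bacterial L18, which in bacteria binds 5S ribosomal RNA. Its levels were 90.1, 84.6 and 68.1 FPKM with NRASG12D, 142, 151 and 121 FPKM with NUP98-NSD1 and 215, 108 and 148 FPKM with both. Every library with NUP98-NSD1 lay above the NRASG12D libraries, the groups with NUP98-NSD1 overlapped each other, and Mrpl18 rose by 0.77 in NUP98-NSD1 cells (adjusted limma p 0.00388) and by 0.90 in cells with both genes (adjusted limma p 0.0358). The call in cells with both genes was lost on leaving out a library, with adjusted limma p 0.0787 without NRASG12D replicate 1, 0.0906 without NRASG12D replicate 2, 0.131 without NRASG12D replicate 3 and 0.0802 without NUP98-NSD1+NRASG12D replicate 3, against 0.0105 to 0.132 across all alternatives. That call held in 7 of the 14 alternatives. Mrpl19 (ENSMUSG00000030045.10, chr6:81957851-81965958), a relative of bacterial L19, which lies at the contact between the subunits, read 34.3, 30.2 and 32.7 FPKM with NRASG12D, 67.2, 63.6 and 45.7 FPKM with NUP98-NSD1 and 104, 59.8 and 109 FPKM with both. All 6 libraries with NUP98-NSD1 lay above the NRASG12D libraries, and replicates 1 and 3 with both genes were the highest. It rose by 0.82 ± 0.15 (SE; adjusted limma p 0.00467) in NUP98-NSD1 cells and by 1.42 ± 0.24 (adjusted limma p 0.00463) in cells with both, 0.55 and 1.19 above the all-gene medians. It shares 37.0% of its 50-base stretches with other genes, mostly Gcfc2, so its level is uncertain.

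Chosen after values were seen, Mrpl28 (ENSMUSG00000024181.9, chr17:26123500-26126613), a relative of bacterial L28, read 61.2, 58.4 and 45.5 FPKM with NRASG12D, 124, 125 and 94.2 FPKM with NUP98-NSD1 and 192, 103 and 144 FPKM with both. The groups with NUP98-NSD1 did not overlap the NRASG12D group, and the gene rose by 1.04 (adjusted limma p 0.00239) with NUP98-NSD1 and by 1.36 (adjusted limma p 0.00626) with both. Mrpl12 (ENSMUSG00000039640.7, chr11:120484613-120489065), also chosen after values were seen, encodes a protein of the stalk that recruits translation factors and read 52.8, 53.3 and 44.7 FPKM with NRASG12D, 109, 111 and 87.7 FPKM with NUP98-NSD1 and 169, 75.7 and 96.5 FPKM with both. The NRASG12D libraries lay below all others, the other groups overlapped each other, and the increases were 1.01 with NUP98-NSD1 (adjusted limma p 0.00126) and 1.08 with both genes (adjusted limma p 0.0260). The second call was lost on leaving out a library, with adjusted limma p 0.0722 without NRASG12D replicate 1, 0.0693 without NRASG12D replicate 2, 0.0956 without NRASG12D replicate 3 and 0.0534 without NUP98-NSD1+NRASG12D replicate 3, against 0.00537 to 0.113 across all alternatives. Mrpl1 (ENSMUSG00000029486.13, chr5:96209493-96266727), the protein of the stalk beside the tRNA exit, was among the lowest of the large subunit, at 7.20, 6.47 and 4.92 FPKM with NRASG12D, 12.5, 12.3 and 9.41 FPKM with NUP98-NSD1 and 17.6, 10.9 and 12.3 FPKM with both. Again only the NRASG12D group stood apart, below the others, and Mrpl1 rose by 0.79 (adjusted limma p 0.00711) with NUP98-NSD1 and by 1.00 (adjusted limma p 0.0137) with both. Only leaving out NRASG12D replicate 3 ended the second call among the left-out libraries (adjusted limma p 0.0625, against 0.00434 to 0.0625 across all alternatives). Mrpl47 (ENSMUSG00000037531.8, chr3:32725397-32737605), a relative of bacterial L29 at the exit of the peptide tunnel, read 8.24, 8.27 and 8.35 FPKM with NRASG12D, 18.1, 13.9 and 11.7 FPKM with NUP98-NSD1 and 22.1, 11.2 and 14.3 FPKM with both. The 3 NRASG12D libraries were nearly equal and all others were higher, with increases of 0.73 (adjusted limma p 0.00737) and 0.81 (adjusted limma p 0.0378). The increase with both genes did not pass when a library was left out, with adjusted limma p 0.108 without NRASG12D replicate 1, 0.106 without NRASG12D replicate 2, 0.112 without NRASG12D replicate 3 and 0.0718 without NUP98-NSD1+NRASG12D replicate 3, against 0.00763 to 0.123 across all alternatives. The increase with both genes passed in 7 of the 14 alternatives. Mrpl47 shares 23.3% of its stretches with other genes, so its level is uncertain.

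**Figure D3:**
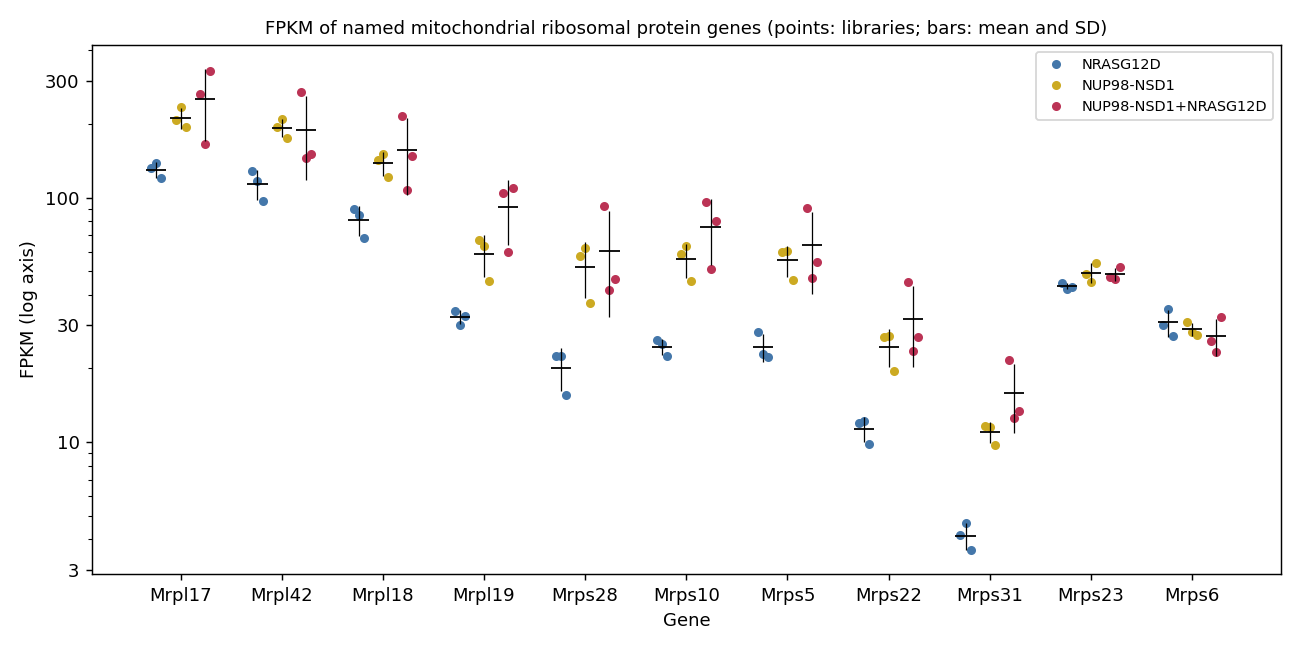
FPKM (log axis) of 11 named genes in the 3 groups, with points for libraries and bars for the mean and SD (n = 3). Mrps28 through Mrps31 stand higher in every library with NUP98-NSD1 than in any NRASG12D library, Mrps23 does so by a small margin, and Mrps6 overlaps between groups.

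Small-subunit genes held the largest differences in both comparisons. Mrps28 (ENSMUSG00000040269.5, chr3:8802146-8923918), a relative of bacterial S1, read 22.5, 22.4 and 15.5 FPKM with NRASG12D, 57.6, 62.1 and 36.9 FPKM with NUP98-NSD1 and 92.3, 42.0 and 46.3 FPKM with both. All libraries with NUP98-NSD1 lay above all NRASG12D libraries, and replicate 1 with both genes was the highest. Means ± SD (n = 3) were 20.1 ± 4.01, 52.2 ± 13.5 and 60.2 ± 27.9 FPKM. In NUP98-NSD1 cells Mrps28 rose by 1.32 ± 0.22 (SE), 1.04 above the all-gene median (adjusted limma p 0.00373). In cells with both genes it rose by 1.46 ± 0.32 (adjusted limma p 0.0122), and without NRASG12D replicate 3 by 1.29 (adjusted limma p 0.0518, against 0.00543 to 0.0724 across all alternatives). Mrps31 (ENSMUSG00000031533.4, chr8:22411361-22429665), a mitochondria-specific protein of the small-subunit head, had the lowest mean over the 9 libraries, though not within cells with both genes, and read 4.16, 4.65 and 3.61 FPKM with NRASG12D, 11.6, 11.6 and 9.74 FPKM with NUP98-NSD1 and 21.7, 12.6 and 13.4 FPKM with both. The 3 groups stood in that order without overlap. It rose by 1.22 ± 0.12 (SE; adjusted limma p 7.60e-04) with NUP98-NSD1 and by 1.68 ± 0.23 (adjusted limma p 0.00185) with both, 0.95 and 1.45 above the all-gene medians. Both calls held in all 14 alternatives.

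Mrps10 (ENSMUSG00000034729.16, chr17:47368887-47381417), a head protein related to bacterial S10, read 26.1, 25.1 and 22.4 FPKM with NRASG12D, 58.6, 63.1 and 45.8 FPKM with NUP98-NSD1 and 96.2, 50.9 and 80.4 FPKM with both. No NRASG12D library reached the others, and it rose by 1.15 ± 0.13 (SE; adjusted limma p 0.00115) with NUP98-NSD1 and by 1.54 ± 0.24 (adjusted limma p 0.00310) with both. Mrps5 (ENSMUSG00000027374.12, chr2:127587222-127606829) encodes a relative of bacterial S5, which lies where mRNA enters the small subunit. Its levels were 28.3, 22.8 and 22.3 FPKM with NRASG12D, 59.8, 60.3 and 45.8 FPKM with NUP98-NSD1 and 90.9, 46.7 and 54.4 FPKM with both. All 3 NRASG12D libraries were lowest, and the increases were 1.14 (adjusted limma p 0.00140) and 1.30 (adjusted limma p 0.00861). The second call was lost without the filter on low values (adjusted limma p 0.0535, against 0.00238 to 0.0535 across all alternatives). Mrps22 (ENSMUSG00000032459.9, chr9:98588730-98601660), a mitochondria-specific protein, read 11.9, 12.2 and 9.85 FPKM with NRASG12D, 26.8, 27.3 and 19.6 FPKM with NUP98-NSD1 and 45.3, 23.6 and 26.98 FPKM with both. Here too the NRASG12D libraries were lowest while the other groups overlapped each other, with increases of 1.04 (adjusted limma p 0.00221) and 1.37 (adjusted limma p 0.00640). Mrps14 (ENSMUSG00000058267.13, chr1:160195215-160202170), a relative of bacterial S14 and the most abundant of the small subunit, changed less. It read 131, 131 and 116 FPKM with NRASG12D, 193, 203 and 161 FPKM with NUP98-NSD1 and 260.5, 150.3 and 179 FPKM with both. All libraries with NUP98-NSD1 were higher, yet only the increase of 0.55 in NUP98-NSD1 cells passed (adjusted limma p 0.00637). In 1 fit of all 9 libraries the calls in NUP98-NSD1 cells on Mrps14, Mrpl17 and Mrpl47 were lost. The difference of 0.60 with both genes (adjusted limma p 0.0723) passed only without NUP98-NSD1+NRASG12D replicate 2 among the left-out libraries (0.77, adjusted limma p 0.0252, against 0.0252 to 0.290 across all alternatives).

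A few genes stood near the same level in all groups. Mrps23, a mitochondria-specific small-subunit protein, read 44.8, 42.3 and 43.2 FPKM with NRASG12D, 48.5, 45.2 and 54.1 FPKM with NUP98-NSD1 and 47.5, 46.3 and 52.1 FPKM with both. Its SD over the 9 libraries, 0.12 on the log2 scale, was the smallest of the 78 genes, and neither difference passed (adjusted limma p 0.134 and 0.359). On the FPKM as given, all libraries with NUP98-NSD1 were still above the NRASG12D libraries, by a small margin. Under other scalings the differences turned, reaching -0.133 with NUP98-NSD1 and -0.14 with both genes. Mrps6, a relative of bacterial S6, read 30.2, 35.0 and 27.3 FPKM with NRASG12D, 30.9, 28.2 and 27.5 FPKM with NUP98-NSD1 and 25.8, 23.3 and 32.5 FPKM with both. These overlapped, and the differences of -0.09 and -0.18 did not pass (adjusted limma p 0.531 and 0.444). Without NRASG12D replicate 2 the first became 0.00557 (adjusted limma p 0.971), and after median-ratio scaling it was -0.38 (adjusted limma p 0.0138), adjusted p across the alternatives being 0.0106 to 0.971. Mrps6 shares 17.3% of its stretches with other genes, which makes its level uncertain. Mrps21, a relative of bacterial S21, read 119, 125 and 104 FPKM with NRASG12D, 129, 128 and 119 FPKM with NUP98-NSD1 and 146, 100.01 and 123 FPKM with both, and overlapped between all groups. The difference for Mrps21 with both genes, 0.07, turned to -0.00158 without NRASG12D replicate 3 and to -0.06 without NUP98-NSD1+NRASG12D replicate 1.

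On the large subunit, Mrpl14, a relative of bacterial L14 at the face toward the small subunit, read 84.0, 84.6 and 60.6 FPKM with NRASG12D, 93.7, 94.4 and 89.9 FPKM with NUP98-NSD1 and 104, 70.9 and 94.9 FPKM with both. NUP98-NSD1 libraries were higher than NRASG12D libraries without overlap, but the difference of 0.29 did not pass (adjusted limma p 0.108). This difference turned to -0.0126 after median-ratio scaling. Mrpl57, which is mitochondria-specific, read 86.5, 78.8 and 62.6 FPKM with NRASG12D, 89.0, 94.2 and 88.6 FPKM with NUP98-NSD1 and 90.5, 54.7 and 79.8 FPKM with both. Its difference with both genes, -0.04, turned to 0.06 without NRASG12D replicate 1 and 0.17 without NUP98-NSD1+NRASG12D replicate 2, the lowest library. Mrpl33, one of the most abundant genes and a relative of bacterial L33, read 153, 152 and 112 FPKM with NRASG12D, 190.4, 192 and 155 FPKM with NUP98-NSD1 and 229, 94.9 and 179 FPKM with both. All NUP98-NSD1 libraries exceeded the NRASG12D libraries, while the libraries with both genes ran from the lowest to the highest of the 9. The difference of 0.37 in NUP98-NSD1 cells (adjusted limma p 0.0736) passed without NUP98-NSD1 replicate 3 (0.47, adjusted limma p 0.0374, against 0.0116 to 0.691 across all alternatives). With both genes the difference of 0.19 turned to -0.08 without NUP98-NSD1+NRASG12D replicate 1.

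Mrps36, the dehydrogenase subunit, read 27.2, 28.1 and 22.5 FPKM with NRASG12D, 52.9, 51.9 and 33.2 FPKM with NUP98-NSD1 and 72.0, 45.4 and 50.2 FPKM with both. The NRASG12D libraries lay below all others, and it rose by 0.78 (adjusted limma p 0.0129) and 1.06 (adjusted limma p 0.00777). The first call was lost without NRASG12D replicate 3 (0.68, with the adjusted limma p at the threshold) and without NUP98-NSD1 replicate 2 (0.68, adjusted limma p 0.0509), against 4.44e-04 to 0.0798 across all alternatives. Its level is uncertain, with 17.3% of its stretches shared, mostly with the pseudogene Mrps36-ps1. Mitoribosome subunits whose names the rule does not match are Dap3, Gadd45gip1, Chchd1, Aurkaip1 and Ptcd3. All 5 were higher in NUP98-NSD1 cells (median 0.72) and 4 in cells with both genes (median 0.75), all but Chchd1. The shares of all genes higher were 42.2% and 24.2%, with medians of 0.27 and 0.23. Dap3, a GTP-binding protein of the small subunit, read 20.9, 21.6 and 16.5 FPKM with NRASG12D, 47.8, 47.3 and 28.4 FPKM with NUP98-NSD1 and 73.2, 44.1 and 53.2 FPKM with both. No NRASG12D library reached the others, and it rose by 1.00 (adjusted limma p 0.00796) and 1.46 (adjusted limma p 0.00255). The first call was lost without the filter on low values (adjusted limma p 0.0583, against 2.82e-04 to 0.0583 across all alternatives), as were those on Chchd1 and Mrps36.

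The members varied together over the libraries. On the log2 scale, 63 of the 78 correlated above 0.9 with the mean of the other 77 over the 9 libraries, as a description with no test, with a median r of 0.966 and the lowest r of -0.217 for Mrps6. These 9 points are 3 groups of libraries, so r holds the difference between groups. The same count was not made over all genes tested, so the 63 are not read as particular to the members. The median SD over the 9 libraries was 0.46 for members and 0.37 for all genes tested. Within groups, 76 of the 78 genes were lowest in NUP98-NSD1 replicate 3, against 57.4% of all genes, and 68 were lowest in NRASG12D replicate 3, against 47.9%. This order is not particular to the members. Of 80 cytosolic ribosomal protein genes, 79 and 58 were lowest in these libraries, and 78 in NUP98-NSD1+NRASG12D replicate 2. For 83 nuclear oxidative phosphorylation genes the counts were 76, 70 and 79.

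Other lists are read against all genes tested, of which 42.2% were higher in NUP98-NSD1 cells and 24.2% in cells with both genes. Of 27 mitoribosome assembly genes, 17 were higher and 0 lower in NUP98-NSD1 cells (median 0.42) and 7 in cells with both genes (median 0.48). C1qbp, a matrix protein that binds mitochondrial RNA, read 78.8, 77.4 and 76.8 FPKM with NRASG12D, 186, 191 and 138 FPKM with NUP98-NSD1 and 284, 119.5 and 145 FPKM with both. All libraries with NUP98-NSD1 were higher, and it rose by 1.12 in NUP98-NSD1 cells (adjusted limma p 0.00118). Of 13 translation factors, 9 were higher in NUP98-NSD1 cells (median 0.62) and 5 in cells with both (median 0.50). Among 21 mitochondrial aminoacyl-tRNA synthetases, 16 (median 0.54) and 4 (median 0.45) were higher, and among 10 genes of mitochondrial transcription and DNA, 7 (median 0.57) and 2 (median 0.44). Of 83 cytosolic ribosomal protein genes, 80 were tested, and 71 were higher in NUP98-NSD1 cells (median 0.59) and 17 in cells with both (median 0.54). Of 89 nuclear genes of oxidative phosphorylation, 83 were tested. Among these, 70 were higher and 1 lower (median 0.55) in the first comparison and 31 higher and 2 lower (median 0.55) in the second. Of 15 proliferation genes, 14 (median 0.91) and 9 (median 0.88) were higher. Of 10 tested apoptosis and stress genes, 2 were higher and 3 lower in NUP98-NSD1 cells, and 1 was higher and 3 lower in cells with both. The shares of all genes lower were 9.98% and 14.1%. In cells with both genes, 4 of these lists had counts near the share of all genes, 24.2%. They were assembly genes (25.93%), synthetases (19.05%), mitochondrial transcription and DNA (20%) and cytosolic ribosomal proteins (21.25%). These counts are not read as a difference.

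Members per unit of cytosolic ribosomal protein mRNA, as a ratio of summed FPKM, stood at 0.138, 0.136 and 0.123 with NRASG12D, 0.135, 0.144 and 0.152 with NUP98-NSD1 and 0.148, 0.163 and 0.159 with both. These overlapped between the first 2 groups. The sums used for these ratios cover all 83 cytosolic ribosomal protein genes and all 89 oxidative phosphorylation genes, tested or not. Per unit of nuclear oxidative phosphorylation mRNA the ratios were 0.332, 0.338 and 0.328 with NRASG12D, 0.363, 0.363 and 0.353 with NUP98-NSD1 and 0.376, 0.358 and 0.379 with both, and both groups with NUP98-NSD1 lay above NRASG12D. The ribosomal RNAs of the mitoribosome are mt-Rnr1 and mt-Rnr2, with a median log2 difference of 0.22 in NUP98-NSD1 cells (-0.09 after median-ratio scaling) and -0.18 in cells with both genes. The small-subunit RNA mt-Rnr1 read 389, 410.0 and 511 FPKM with NRASG12D, 530.4, 572 and 567 FPKM with NUP98-NSD1 and 641, 410.5 and 238 FPKM with both. Its increase of 0.36 in NUP98-NSD1 cells (adjusted limma p 0.0377) was lost on leaving out a library, with adjusted limma p 0.125 without NRASG12D replicate 1, 0.112 without NRASG12D replicate 2, 0.0716 without NUP98-NSD1 replicate 1, 0.116 without NUP98-NSD1 replicate 2 and 0.0634 without NUP98-NSD1 replicate 3, against 0.00742 to 0.769 across all alternatives. The large-subunit RNA mt-Rnr2 read 684, 639.6 and 859 FPKM with NRASG12D, 732, 778 and 783 FPKM with NUP98-NSD1 and 835, 691 and 396 FPKM with both, and passed in neither comparison. Of the 13 mitochondrial mRNAs that the particle translates, 0 were higher and mt-Nd2 and mt-Nd3, subunits of complex I, were lower in NUP98-NSD1 cells with limma. Of all genes tested, 42.2% were higher and 9.98% lower. The lower calls, 15.38% of the 13, are near the share lower and are not read as a result about these mRNAs. The call on mt-Nd2 (-0.28, adjusted limma p 0.0274) was lost on leaving out a library, with adjusted limma p 0.0918 without NRASG12D replicate 2, 0.0775 without NRASG12D replicate 3, 0.0834 without NUP98-NSD1 replicate 1 and 0.0970 without NUP98-NSD1 replicate 2, against 0.00352 to 0.530 across all alternatives. The median difference of the 13 was 0.14 as given, -0.17 after median-ratio scaling, -0.13 after quantile normalization and -0.03 in TPM. In cells with both genes 0 of the 13 passed and 0 had an unadjusted limma p under 0.05, and mt-Nd3 passed without NUP98-NSD1+NRASG12D replicate 1 (-1.01, adjusted limma p 0.0241, against 0.0103 to 0.480 across all alternatives).

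Of 15 regulators of nuclear mitochondrial genes, 14 were tested, and 5 were higher in NUP98-NSD1 cells, with a median of 0.23 (-0.06 after median-ratio scaling and -0.09 after quantile normalization). These 5 of 14 are near the share of all genes, 42.2%. Groups did not overlap on the higher side for 9 of the 14, against 50.7% of all genes, and on the lower side for 1. In cells with both genes 5 were higher and Mycn lower, with a median of 0.24 (-0.07 after quantile normalization), against 24.2% of all genes higher. Mycn (-2.43, adjusted limma p 0.0363) did not pass with adjusted limma p 0.0959 without NRASG12D replicate 1, 0.0791 without NRASG12D replicate 2, 0.110 without NRASG12D replicate 3 and 0.0525 without NUP98-NSD1+NRASG12D replicate 1, against 0.00310 to 0.158 across all alternatives. Myc read 163, 166 and 179 FPKM with NRASG12D, 302, 305 and 235 FPKM with NUP98-NSD1 and 243, 149 and 193 FPKM with both. It was higher in all NUP98-NSD1 libraries and rose by 0.72 there (adjusted limma p 0.00332), while the libraries with both genes overlapped NRASG12D (0.17, adjusted limma p 0.523).

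Reads are short, so sequence shared with other genes limits some levels. With 50-base stretches, 27 of the 78 genes shared none, 21 shared more than 10% and 3 shared more than 50%. Those 3 are Mrpl53 (82.0%, mostly with Gm42688), Mrps34 (71.8%, mostly with Mapk8ip3) and Mrps25 (68.2%, mostly with Nr2c2), and their levels are uncertain. Among the 57 genes with 10% or less, 52 were higher in NUP98-NSD1 cells (median 0.72) and 33 in cells with both genes (median 0.79).

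Many members have a neighbor that starts close by on the other strand. A divergent gene within 1000 bp of the start was present for 33 of the 78 (42.3%), against 10.8% of 21951 protein-coding genes and 17.5% of 10776 tested ones. Mrpl46 and Mrps11 start 412 bp apart from each other, Mrpl36 starts 29 bp from Ndufs6, a subunit of complex I, and Mrps12 starts 172 bp from Sars2, the mitochondrial seryl-tRNA synthetase. Promoter sequences from RefSeq (GRCm38.p6), 250 bases before to 50 after a start, were at hand for 69 members (75 promoters). Mrpl13, Mrpl15, Mrpl19, Mrpl38, Mrpl4, Mrpl54, Mrps28, Mrps34 and Mrps35 had no entry.

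Letters of 6 known motifs were searched on both strands of these promoters. The GABP/ETS letters CCGGAAG were in 34.7% of member promoters (26 of 75), against 8.86% of all 32851 promoters and 18.6% of the 11485 promoters of tested genes. NRF1 letters (CGCATGCG) were in 9.33%, against 1.87% and 3.94%, and YY1 letters (AANATGGCG) in 14.7%, against 2.38% and 5.24%. The E-box CACGTG was in 9.33%, against 7.15% and 10.1%, the SP1 letters GGGCGG in 52% against 35.7% and 61.2%, and the NFY letters CCAAT in 40% against 37.4% and 38.2%. A match is a description, not a site or a cause. The 6 promoters below are of members that hold GABP/ETS letters with NRF1 or YY1 letters, or of members with values above, and capitals mark GABP/ETS, NRF1, YY1 and E-box letters on either strand. Mrpl17 (chr7:105811038-105811337, minus strand) and Mrpl22 (chr11:58171414-58171713, plus strand) hold GABP/ETS and NRF1 letters. Mrpl58 (chr11:115403502-115403801, plus strand), which encodes a peptidyl-tRNA hydrolase built into the large subunit, holds the GABP/ETS letters at 2 places and YY1 letters. Mrps27 (chr13:99344536-99344835, plus strand) holds GABP/ETS letters on the reverse strand and YY1 letters. Mrps22 (chr9:98601630-98601929, minus strand) holds GABP/ETS letters and Mrpl42 (chr10:95501900-95502199, minus strand) YY1 letters.
Mrpl17: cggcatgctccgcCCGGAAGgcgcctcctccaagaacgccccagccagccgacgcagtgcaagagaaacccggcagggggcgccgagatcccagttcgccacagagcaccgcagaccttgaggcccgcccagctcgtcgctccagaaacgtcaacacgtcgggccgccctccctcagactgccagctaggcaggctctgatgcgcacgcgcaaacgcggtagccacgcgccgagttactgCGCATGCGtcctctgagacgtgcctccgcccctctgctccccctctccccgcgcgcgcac
Mrpl22: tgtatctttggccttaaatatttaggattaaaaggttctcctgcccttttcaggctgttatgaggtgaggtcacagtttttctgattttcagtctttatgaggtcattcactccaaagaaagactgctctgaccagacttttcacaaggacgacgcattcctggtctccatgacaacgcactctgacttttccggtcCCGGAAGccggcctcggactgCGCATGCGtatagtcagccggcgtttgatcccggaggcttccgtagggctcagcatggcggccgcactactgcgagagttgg
Mrpl58: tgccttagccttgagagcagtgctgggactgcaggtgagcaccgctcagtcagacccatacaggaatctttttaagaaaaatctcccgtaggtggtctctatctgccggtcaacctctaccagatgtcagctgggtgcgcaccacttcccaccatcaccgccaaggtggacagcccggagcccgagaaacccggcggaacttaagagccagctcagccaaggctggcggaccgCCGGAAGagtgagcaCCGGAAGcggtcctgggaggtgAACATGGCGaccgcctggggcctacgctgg
Mrps27: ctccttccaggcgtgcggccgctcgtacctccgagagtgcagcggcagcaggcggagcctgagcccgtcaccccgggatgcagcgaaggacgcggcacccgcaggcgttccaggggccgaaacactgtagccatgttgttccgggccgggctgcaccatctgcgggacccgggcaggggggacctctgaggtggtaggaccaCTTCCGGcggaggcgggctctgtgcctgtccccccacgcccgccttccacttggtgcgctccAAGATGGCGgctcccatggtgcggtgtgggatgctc
Mrps22: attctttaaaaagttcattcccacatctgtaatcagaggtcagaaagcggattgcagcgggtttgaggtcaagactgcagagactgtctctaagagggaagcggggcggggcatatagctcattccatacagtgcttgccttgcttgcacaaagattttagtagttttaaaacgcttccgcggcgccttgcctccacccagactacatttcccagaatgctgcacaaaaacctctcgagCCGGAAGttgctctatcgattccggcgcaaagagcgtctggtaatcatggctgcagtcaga
Mrpl42: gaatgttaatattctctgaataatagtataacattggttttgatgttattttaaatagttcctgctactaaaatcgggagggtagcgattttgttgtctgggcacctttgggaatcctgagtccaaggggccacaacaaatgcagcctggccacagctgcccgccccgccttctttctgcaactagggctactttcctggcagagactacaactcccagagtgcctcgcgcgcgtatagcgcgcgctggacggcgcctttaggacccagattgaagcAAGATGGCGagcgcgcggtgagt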

How the data were processed

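The deposited FPKM tables were used as the authors gave them, made with STAR 2.7.2a and Cufflinks 2.2.1 on GRCm38.p6 (the study's methods name GENCODE M22, and GENCODE M21 was used here for positions and shared sequence). Only FPKM were used, so limma 3.58.1 (R 4.3.3) was fitted to log2(FPKM + 1), each pair of groups on its own 6 libraries with a trended variance, two-sided, in place of a test on counts. Depth was estimated from the steps between low values with an assumed fragment length of 150 and a tolerance of 0.15 of a step, and 84.6% to 87.0% of the low values lay on whole steps. For each comparison 14 alternatives were tried, and members with at most 10% shared sequence were counted apart, a choice made after seeing the data. Named by a rule were the members with the highest and lowest mean FPKM, the largest changes without overlap and the smallest and largest SD, and, of other lists, the largest changes. Mrpl12, Mrpl14, Mrpl24, Mrpl28, Mrpl36, Mrpl57, Mrps6, Mrps21 and Mrps36 were chosen after values were seen. The members and lists were chosen with earlier results of these data known. Python 3.11.15, numpy 2.4.6, pandas 2.3.3, scipy 1.17.1 and matplotlib 3.10.9 were used.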

Additional observations from a re-analysis of the deposited data

How the results depend on the processing

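Each comparison has 3 libraries a group, no empty-vector group, and cell type markers that move with the groups, and why the counts depend on single libraries was not tested. In NUP98-NSD1 against NRASG12D cells, fitting all 9 libraries at once gave 41 members higher in place of 72. Members lower were 1 after median-ratio scaling and 1 after quantile normalization, and the median difference was 0.405 after median-ratio scaling, 0.394 after quantile normalization and 0.546 in TPM. Leaving out 1 library gave 62 to 73 higher, 0 to 0 lower and medians of 0.636 to 0.815. In NUP98-NSD1+NRASG12D against NRASG12D cells, 16 were higher in place of 46 without the filter on low values, the median was 0.492 after quantile normalization, and leaving out 1 library gave 17 to 60 higher, 0 to 0 lower and medians of 0.604 to 0.93. In NUP98-NSD1+NRASG12D against NUP98-NSD1 cells, array weights gave 2 members lower and a median of -0.0647, and leaving out 1 library gave 0 to 0 higher, 0 to 2 lower and medians of -0.118 to 0.275. With the replicate number as a block, 73 members were higher and 0 lower in the first comparison, 42 and 0 in the second, and 0 and 0 in the last. Counts over all genes are not given for array weights, the replicate block, or the left-out fits of the first and last comparison. Member counts from these fits are therefore not read as a result about the members. Same-numbered libraries did not deviate together (r of -0.067, -0.037 and 0.021 in the first comparison, 0.046, 0.061 and -0.059 in the second, 0.160, -0.177 and 0.023 in the last). Labels and methods do not say whether the numbers pair libraries, and with 3 libraries a group these r cannot decide it. For the named members in the comparisons with NRASG12D cells, 556 of 644 alternatives gave the same direction and call, 46 were weaker, 9 stronger and 33 reversed. Reversed in NUP98-NSD1 against NRASG12D cells were, after median-ratio scaling, Mrpl14 (-0.0126), Mrpl57 (-0.0413), Mrps21 (-0.189) and Mrps23 (-0.126). After quantile normalization these were Mrpl14 (-0.00421), Mrpl57 (-0.0348), Mrps21 (-0.195) and Mrps23 (-0.133), and in TPM Mrps21 (-0.0503). Reversed in NUP98-NSD1+NRASG12D against NRASG12D cells were, after median-ratio scaling, Mrpl33 (-0.00789), Mrpl36 (-0.159), Mrps21 (-0.122) and Mrps23 (-0.0363). After quantile normalization these were Mrpl14 (-0.108), Mrpl24 (-0.0912), Mrpl33 (-0.181), Mrpl36 (-0.311), Mrps21 (-0.3) and Mrps23 (-0.14), and in TPM Mrpl14 (-0.00852), Mrpl24 (-0.0102), Mrpl33 (-0.0518), Mrpl36 (-0.204), Mrps21 (-0.166) and Mrps23 (-0.0801). With array weights Mrpl36 reversed (-0.157). Leaving out 1 library gave -0.168 to 0.00557 for Mrps6 in the first comparison and, in the second, -0.0809 to 0.551 for Mrpl33, -0.233 to 0.178 for Mrpl36, -0.186 to 0.172 for Mrpl57 and -0.0561 to 0.216 for Mrps21.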
